A study of Homo sapiens with 4 samples.

Results

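The genes described are 58 splicing proteins, drawn from 59409 gene symbols by their names. They comprise 25 heterogeneous nuclear ribonucleoprotein genes (hnRNP, symbols HNRNP), 12 serine/arginine-rich splicing factor genes (SRSF), 12 small nuclear ribonucleoprotein polypeptide genes (SNRP) and 9 genes of the SF3A and SF3B complexes (SF3). Symbols of pseudogenes, which end in P and a number, were not counted among them. RNA was sequenced from 786-O, an established human renal carcinoma cell line, in 4 libraries. The 2 control libraries are labelled negative control, genotype WT, and carry Cas9. The 2 others are labelled DEK KO, a knockout of the gene for the chromatin protein DEK. Per the labels' protocols, a 786-O clone expressing Cas9 from a lentivirus was infected with a second lentivirus carrying guide RNAs against DEK and sorted as single cells, so every library shares the Cas9 background and the knockouts come from clones. The labels do not tell which clone or guide each knockout library holds, or whether libraries of a group are separate cultures. The p-values thus measure only how far these libraries vary, and that variation may be technical.

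The hnRNP proteins coat nascent transcripts and often hold splice sites or exons back from use. The SR proteins bind exons through RNA recognition motifs and recruit the splicing machinery through their serine/arginine-rich tails, so that splice-site choice follows the balance of both families. The SNRP genes encode the Sm ring shared by most spliceosomal RNPs and a few proteins particular to the U1 or U2 particle. The SF3A and SF3B complexes sit on the U2 particle and hold the branch site. Several SR and hnRNP genes carry exons whose use sends their own transcripts to nonsense-mediated decay. In GENCODE release 29, 39 of the 52 genes measured well enough to be tested have a transcript annotated as a decay target or as a retained intron, among them all 11 tested SRSF genes. The share among all tested genes was not worked out, so the count does not set the members apart. A value per gene cannot separate such transcripts from coding ones.

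Levels are given in TPM, transcripts per 1000000, which sum to 1000000 in every library and are scaled for gene length. A gene was tested where it reached 1 TPM in at least 2 libraries, which 15815 genes did. The depth, estimated from the steps between low TPM values, was, in units of 1000000 reads, 38.9 and 39.5 for the control libraries and 35.9 and 39.98 for the knockouts, and mitochondrial genes held between 16.4% and 19.0% of TPM. DEK itself measured 95.02 and 76.3 TPM in control cells and 31.4 and 15.7 TPM in knockout cells, 3.64-fold lower (log2 change -1.89, SE 0.33, adjusted p = 0.030), so its transcript was reduced but still present. Of 11 markers of 786-O, 10 were expressed, among them PAX8 (140 to 160 TPM); 3 of the 10 fell (NNMT 2.82-fold, PAX2 2.20-fold and CDH6 1.41-fold; adjusted p = 0.017, 0.027 and 0.038), KRT18 rose (adjusted p = 0.025), and CA9 was near 0 in every library, at most 0.346 TPM. Of 13 markers of other cell types none could be tested, CD3E and MYOD1 were at 0 in all libraries, the highest value was 1.33 TPM for SYP, and the list summed to 1.73 and 2.11 TPM in the controls and to 2.66 and 2.76 TPM in the knockouts.

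The tested splicing proteins held less of the RNA in the knockouts. Their summed level was 10010 ± 69.9 TPM in the controls and 8059 ± 187 TPM in the knockouts (SD, n = 2 each), 19.5% lower. In RNA from whole cultures, less RNA in every cell and fewer cells expressing it cannot be told apart. At an adjusted p under 0.05 (limma on log2(TPM + 1), Benjamini-Hochberg over all tested genes), 22 of the 52 tested members fell, or 42.3%, where 8.67% of all tested genes fell. No member rose at that threshold, where 9.06% of all tested genes did; at an unadjusted p under 0.05, limma placed 36 members lower and 1, HNRNPLL, higher, where 21.4% of all tested genes were lower and 16.9% higher. Both knockouts lay below both controls in 42 of the 52, against 39.0% of all tested genes. The members are well expressed, with means of 10.2 to 674 TPM and between 137 and 50489 estimated reads per library, and among genes with a mean of at least 10 TPM the shares were 12.2% fallen and 44.5% with both knockouts below. Without control 1 or without control 2, no member passed the threshold and 47 or 51 genes did in all; at an unadjusted p under 0.05, 19 or 23 members were then lower, where 8.16% or 11.6% of all tested genes were.

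The number of members that fell varied by family. Of the hnRNP genes 15 of 21 tested fell (median log2 change -0.40), of the SRSF genes 5 of 11 (median -0.58), of the SNRP genes 1 of 11 (median -0.18) and of the SF3 genes 1 of 9 (median -0.09), beside a median of -0.06 over all tested genes. Of all tested genes 8.67% fell, as did 12.2% of those with a mean of at least 10 TPM. The SNRP share, 9.09%, and the SF3 share, 11.1%, lay near these values. At an unadjusted p under 0.05, limma placed 16 of 21 hnRNP, 10 of 11 SRSF, 6 of 11 SNRP and 4 of 9 SF3 genes lower. At that threshold 21.4% of all tested genes were lower and 16.9% higher, and of the members only HNRNPLL was higher. The difference between families was not tested. Summed per family, the hnRNP genes went from 5429 ± 32.2 to 4102 ± 97.0 TPM and the SRSF genes from 1459 ± 54.6 to 1150 ± 27.1 TPM (SD, n = 2). The SNRP genes went from 1537 ± 9.07 to 1365 ± 4.45 TPM and the SF3 genes from 1585 ± 7.92 to 1443 ± 58.4 TPM. As shares of the control level these sums were lower by 24.4%, 21.2%, 11.2% and 8.96% in that order. Knockout 2 lay below knockout 1 in 38 of the 52 members, where it did so in 49.5% of all tested genes.

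**Figure D1:**
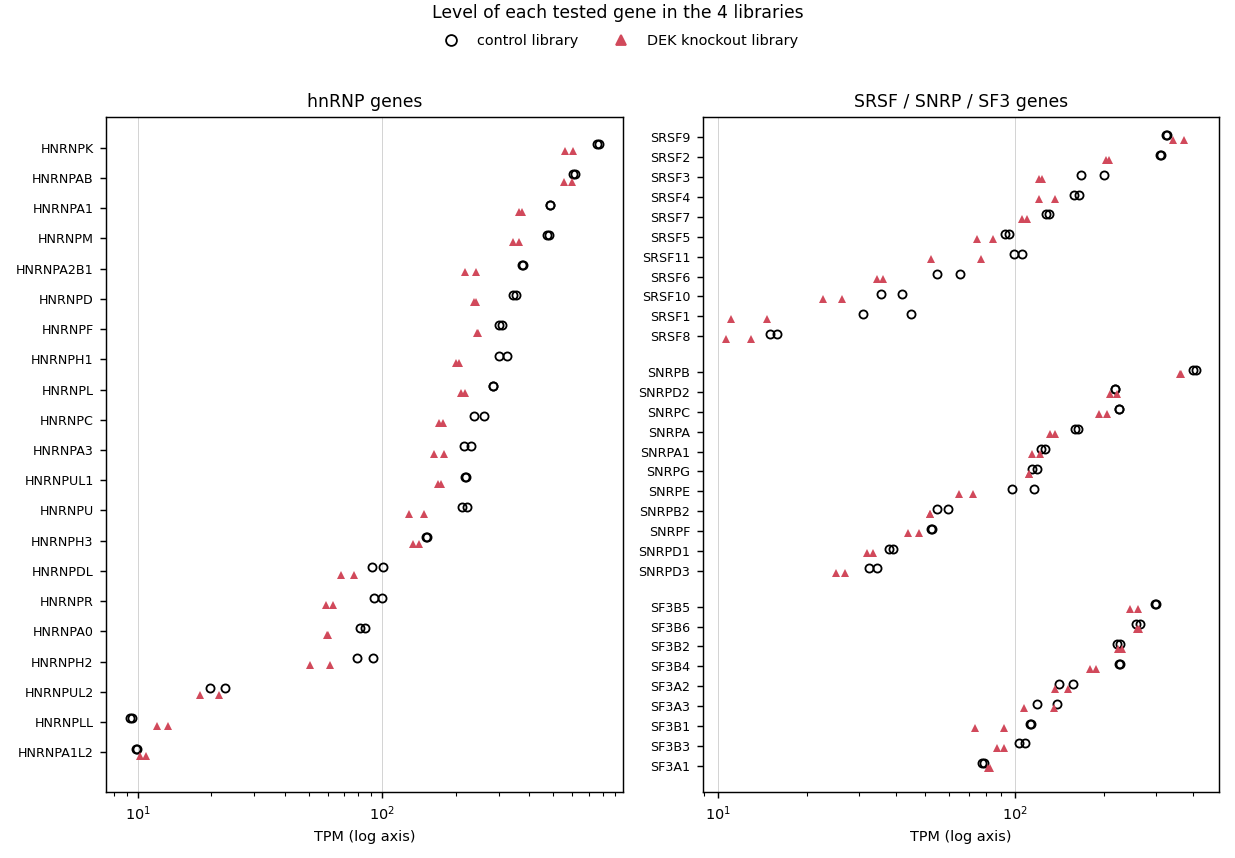
Level of every tested gene in TPM on a log axis, hnRNP genes on the left and SRSF, SNRP and SF3 genes on the right, sorted by mean level within a family; open circles are the 2 control libraries and triangles the 2 DEK knockout libraries. In 42 of 52 genes both triangles lie left of both circles, and the widest gap is that of SRSF1.

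The change of a gene went with its GC content throughout the data, and the members are not spread evenly over GC content. Among all 15640 tested genes with a known sequence, the log2 change rose with the GC content of the longest annotated transcript (across genes, Spearman's rho 0.35, Pearson's r 0.27), and the same values over the 52 members were 0.38 and 0.31. These genes share the libraries, so the values are descriptions. The median GC content was 42.2% in the hnRNP genes, 40.7% in the SRSF genes, 47.1% in the SNRP genes and 48.5% in the SF3 genes, beside 48.6% over all tested genes. Below 40% GC the median change of all genes was -0.35 and that of the 15 members there -0.58; between 40% and 45% the values were -0.17 and -0.34 for 16 members. Between 45% and 50% they were -0.02 and -0.28 for 8 members, between 50% and 55% 0.04 and -0.10 for 7 members, and above 55% 0.10 and -0.25 for 6 members. The members' median was thus the lower one in each of the 5 ranges. With the GC trend removed from every library before the fit, 7 hnRNP, 3 SRSF, 2 SNRP and 1 SF3 gene fell and 1 hnRNP gene rose, where 7.48% of all genes fell, and the family medians were -0.24, -0.28, -0.09 and -0.20.

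**Figure D2:**
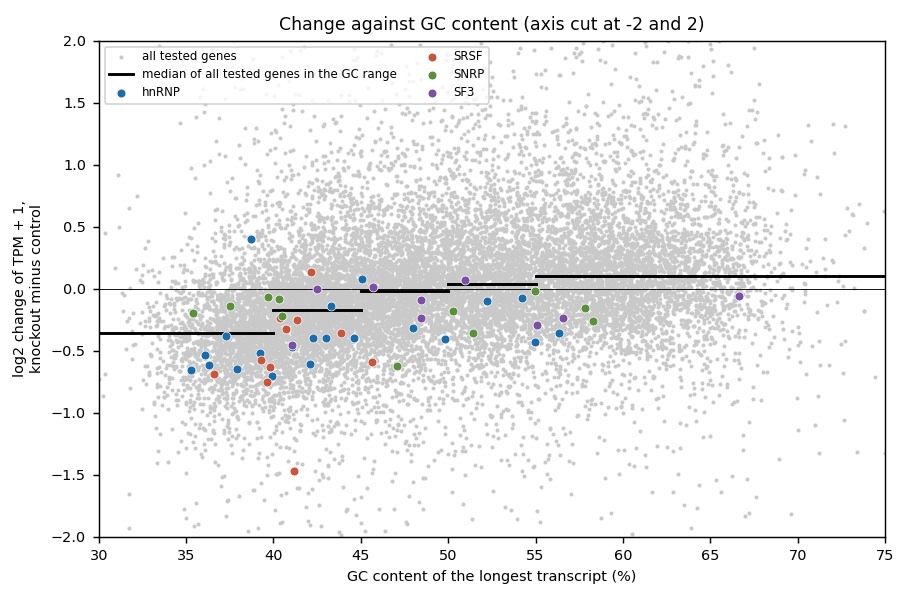
Log2 change of TPM + 1 (knockout minus control) against the GC content of the longest annotated transcript in percent; grey points are all tested genes, coloured points the 52 members by family, and black lines the median of all tested genes in 5 ranges of GC content. The black lines climb from -0.35 below 40% to 0.10 above 55%, and most coloured points lie below the line of their range.

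Promoters are shown here because they are a feature that the choice by name did not use, and their motif matches varied by family. RefSeq (GRCh38.p14) lists 76 promoters for 53 of the 58 members, and the 250 bases before each start were searched on both strands. The CCAAT box (CCAAT or ATTGG) was found in 58.8% of the 34 hnRNP promoters, 18 of 23 genes, where 32.0% of all 35116 promoters hold it; the values were 21.4% for SRSF, 26.3% for SNRP and 11.1% for SF3. The core of the motif bound by ETS-family factors (CCGGAAG or CTTCCGG) was found in 47.4% of the SNRP promoters, 7 of 11 genes, and in 66.7% of the SF3 promoters, 6 of 8 genes, where 8.52% of all promoters hold it; the values were 8.82% for hnRNP and 14.3% for SRSF. The GC box (GGGCGG or CCGCCC) was found in 64.7% of hnRNP, 35.7% of SRSF, 26.3% of SNRP and 66.7% of SF3 promoters and in 42.6% of all, and the promoters' median GC content was 65.6%, 61.4%, 57.6% and 62.4% in the same order, with 58.0% in all. A match is a description of letters and not a binding site. The examples below are the stretches before the start that hold no annotated exon, read 5′ to 3′ along the gene, with matches to the CCAAT box, the ETS core, the GC box and the TATA box (TATAAA or TTTATA) in capitals. The first 4 genes fell and the last 3 did not pass the test. Whether a motif goes with the change was not tested, and the examples do not stand for such a link. The ETS core was also found in HNRNPD, HNRNPF, SNRPE and SF3B4, which fell. The CCAAT box was also found in HNRNPAB, HNRNPH3, HNRNPUL2 and HNRNPLL, which did not pass. HNRNPL lies at chr19:38852348-38852597 (minus strand) and HNRNPA0 at chr5:137754377-137754613 (minus strand), both with a CCAAT box and a GC box. SRSF3 at chr6:36594112-36594352 (plus strand) has CCAAT boxes on both strands and a TATA box, and SRSF6 at chr20:43457646-43457895 (plus strand) has GC boxes only. SNRPC at chr6:34757255-34757405 (plus strand), SNRPG at chr2:70293449-70293617 (minus strand) and SF3B6 at chr2:24076444-24076525 (minus strand) have the ETS core, which reads on both strands at 1 place in SNRPC; SNRPC also has a TATA box and SF3B6 a GC box.
HNRNPL: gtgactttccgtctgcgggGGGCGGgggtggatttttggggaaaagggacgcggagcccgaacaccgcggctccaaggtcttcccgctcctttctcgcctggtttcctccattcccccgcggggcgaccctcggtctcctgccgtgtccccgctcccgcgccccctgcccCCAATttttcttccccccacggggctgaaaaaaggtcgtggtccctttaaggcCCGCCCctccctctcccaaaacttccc
HNRNPA0: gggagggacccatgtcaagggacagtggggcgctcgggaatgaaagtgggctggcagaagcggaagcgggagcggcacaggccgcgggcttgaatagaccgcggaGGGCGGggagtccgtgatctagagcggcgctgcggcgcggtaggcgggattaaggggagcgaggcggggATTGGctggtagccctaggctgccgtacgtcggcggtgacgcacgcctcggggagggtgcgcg
SRSF3: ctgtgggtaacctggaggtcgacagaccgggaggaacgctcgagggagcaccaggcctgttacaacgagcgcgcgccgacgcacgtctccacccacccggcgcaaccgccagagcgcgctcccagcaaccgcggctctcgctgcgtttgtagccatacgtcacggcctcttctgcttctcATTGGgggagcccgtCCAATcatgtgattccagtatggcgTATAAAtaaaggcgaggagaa
SRSF6: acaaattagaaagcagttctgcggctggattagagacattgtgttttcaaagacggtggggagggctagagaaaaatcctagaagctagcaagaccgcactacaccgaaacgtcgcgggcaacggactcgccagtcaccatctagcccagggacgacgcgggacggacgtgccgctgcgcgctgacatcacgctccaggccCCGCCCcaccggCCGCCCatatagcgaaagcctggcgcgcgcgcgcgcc
SNRPC: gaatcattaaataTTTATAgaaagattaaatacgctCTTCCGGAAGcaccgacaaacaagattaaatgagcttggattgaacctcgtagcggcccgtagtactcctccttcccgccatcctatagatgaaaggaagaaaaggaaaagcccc
SNRPG: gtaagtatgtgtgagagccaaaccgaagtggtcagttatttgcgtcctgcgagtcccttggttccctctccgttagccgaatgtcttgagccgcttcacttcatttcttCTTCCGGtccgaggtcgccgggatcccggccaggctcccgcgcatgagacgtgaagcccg
SF3B6: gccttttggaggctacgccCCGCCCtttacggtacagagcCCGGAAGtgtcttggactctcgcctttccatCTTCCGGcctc

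Among the hnRNP genes 15 of 21 fell. HNRNPA2B1, an A/B-type protein that packages nascent transcripts, lies on chromosome 7 (GRCh38, 26173057 to 26201529, minus strand). It had control levels of 375 and 376 TPM and knockout levels of 242 and 218 TPM, 1.63-fold lower (log2 change -0.71, SE 0.07, adjusted p = 0.015), the largest fall among the hnRNP genes. The controls differed by far less than the gap to either knockout, and with the GC trend removed it fell by less (log2 change -0.43, adjusted p = 0.024). Its head-to-head neighbour CBX3, which encodes a heterochromatin protein and starts 697 bases away on the other strand, stood at 224 and 200 TPM in the control libraries against 119 and 98.7 TPM in the knockouts (1.94-fold lower, adjusted p = 0.018), and the gene models overlap over 3.97% of the exon length of HNRNPA2B1. Among the 13 divergent neighbours tested that start within 1000 bases of a member, CBX3 was the 1 that fell; GLA, beside HNRNPH2, and QPCTL, beside SNRPD2, rose.

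HNRNPK, a KH-domain protein that binds C-rich RNA, had the highest level of all members. It measured 760 and 773 TPM in control cells and 603 and 560 TPM in knockout cells, 1.32-fold lower (log2 change -0.40, SE 0.06, adjusted p = 0.026). HNRNPAB was the other of the 2 most abundant hnRNP genes, with 614 and 602 TPM in control cells and 557 and 599 TPM in knockout cells, and did not pass the test (log2 change -0.07, SE 0.06, adjusted p = 0.45). Its lower control and its higher knockout were nearly level. HNRNPA1, which competes with SR proteins over splice sites, had control levels of 488 and 487 TPM and knockout levels of 375 and 364 TPM (log2 change -0.40, SE 0.06, adjusted p = 0.021). Reads of HNRNPA1 are uncertain to the extent that its many processed copies share them. The 124 excluded hnRNP pseudogene symbols together held 69.3 and 64.2 TPM in the controls and 66.7 and 58.3 TPM in the knockouts. Of these symbols 12 were tested, and HNRNPUP1 rose from 1.19 and 1.14 TPM to 6.80 and 3.46 TPM (adjusted p = 0.042). With the GC trend removed it did not pass (adjusted p = 0.051). HNRNPA1L2, an intronless copy of HNRNPA1 that counts as a member, stood at 9.94 and 9.86 TPM in the control libraries against 10.8 and 10.2 TPM in the knockouts and did not pass the test (adjusted p = 0.66).

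HNRNPR, HNRNPU and HNRNPH1 were low in GC content and had some of the larger falls. HNRNPR, a relative of SYNCRIP with roles in RNA transport, measured 100 and 92.7 TPM in control cells and 62.9 and 58.8 TPM in knockout cells (log2 change -0.65, SE 0.08, adjusted p = 0.018). HNRNPU, also known as scaffold attachment factor A, had control levels of 222 and 213 TPM and knockout levels of 149 and 129 TPM (log2 change -0.65, SE 0.09, adjusted p = 0.022). HNRNPH1, which binds runs of G, stood at 325 and 302 TPM in the control libraries against 207 and 201 TPM in the knockouts (log2 change -0.62, SE 0.07, adjusted p = 0.016). In all of them the groups lay far apart. With the GC trend removed their log2 changes were close to each other, -0.24 for HNRNPR, -0.30 for HNRNPU and -0.23 for HNRNPH1, at adjusted p = 0.13, 0.0496 and 0.14. For HNRNPU, 15.6% of the exon length is shared with COX20 on the opposite strand, which also fell (32.5 and 32.5 TPM to 22.8 and 20.2 TPM, adjusted p = 0.030); whether the counts used strand is not given in the sources used here.

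Further hnRNP genes of low GC content passed only while the GC trend was left in. HNRNPH2, a close relative of HNRNPH1 on the X chromosome, went from 91.6 and 79.0 TPM to 61.2 and 50.5 TPM (log2 change -0.61, SE 0.13, adjusted p = 0.043). HNRNPD, which binds AU-rich elements and speeds mRNA decay, went from 343 and 353 TPM to 243 and 237 TPM (log2 change -0.53, SE 0.06, adjusted p = 0.016). HNRNPC, which binds uridine tracts and measures transcript length, went from 238 and 261 TPM to 177 and 171 TPM (log2 change -0.52, SE 0.07, adjusted p = 0.021). The groups did not overlap in any of them, and none passed with the GC trend removed (adjusted p = 0.063, 0.46 and 0.22). HNRNPA0 went from 85.4 and 81.6 TPM to 60.0 and 59.5 TPM (log2 change -0.47, SE 0.07, adjusted p = 0.023). HNRNPA3, another A/B-type protein, went from 232 and 216 TPM to 180 and 163 TPM (log2 change -0.38, SE 0.08, adjusted p = 0.041). Without the GC trend the adjusted p of HNRNPA0 was 0.071, that of HNRNPK 0.067 and that of HNRNPA3 0.89, with a change of -0.01 left for HNRNPA3. HNRNPH2 also did not pass with chromosome medians equalised (adjusted p = 0.054) or with median ratio scaling (adjusted p = 0.052). HNRNPA3 did not pass with median ratio scaling (adjusted p = 0.055). HNRNPD, HNRNPC, HNRNPA0 and HNRNPK passed under both settings.

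The hnRNP genes of higher GC content that fell also passed with the GC trend removed. HNRNPM, which binds GU-rich RNA, went from 472 and 480 TPM to 363 and 343 TPM (log2 change -0.43, SE 0.06, adjusted p = 0.022). HNRNPL, which binds CA repeats, went from 284 and 283 TPM to 218 and 210 TPM (log2 change -0.40, SE 0.06, adjusted p = 0.023), and its promoter is printed above. HNRNPUL1, a relative of HNRNPU, went from 219 and 220 TPM to 169 and 174 TPM (log2 change -0.35, SE 0.06, adjusted p = 0.028). The 2 controls of each were almost equal and both knockouts lay well below. HNRNPF, which binds G runs like HNRNPH1, went from 311 and 302 TPM to 245 and 247 TPM (log2 change -0.31, SE 0.06, adjusted p = 0.033). With the GC trend removed the adjusted p of HNRNPM was 0.024, of HNRNPL 0.023, of HNRNPUL1 0.019, of HNRNPF 0.034 and of HNRNPA1 0.044, the last at a log2 change of -0.25. HNRNPF lies on chromosome 10, whose genes had a median change of -0.14, and with chromosome medians equalised it no longer passed (adjusted p = 0.083).

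The 6 hnRNP genes that did not pass spanned both directions. HNRNPLL, a relative of HNRNPL known for regulating CD45 exons in lymphocytes, measured 9.27 and 9.45 TPM in control cells and 12.04 and 13.3 TPM in knockout cells (log2 change 0.40, SE 0.12, adjusted p = 0.077), the largest positive value of the family. Both knockouts were above both controls, and with the GC trend removed it rose (log2 change 0.72, adjusted p = 0.041), as it did without knockout 1 (adjusted p = 0.042). HNRNPDL, a relative of HNRNPD, had control levels of 101 and 91.0 TPM and knockout levels of 76.9 and 67.7 TPM and missed the threshold (adjusted p = 0.055). HNRNPH3 lay between 134 and 152 TPM and HNRNPUL2 between 17.98 and 22.7 TPM, the latter with overlapping groups. HNRNPCL1, HNRNPCL2, HNRNPCL3 and HNRNPCL4, intronless genes resembling HNRNPC, were at or below 0.190 TPM and were not tested, and HNRNPCL2 was at 0 in every library, where an estimated 3 reads would give 0.249 to 0.281 TPM (counting error only). Without knockout 1, 17 hnRNP genes were called lower, without knockout 2 15, and without either control none, with 13 or 16 of 21 lower at an unadjusted p under 0.05 without control 1 or 2, where 8.16% or 11.6% of all tested genes were.

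**Figure D3:**
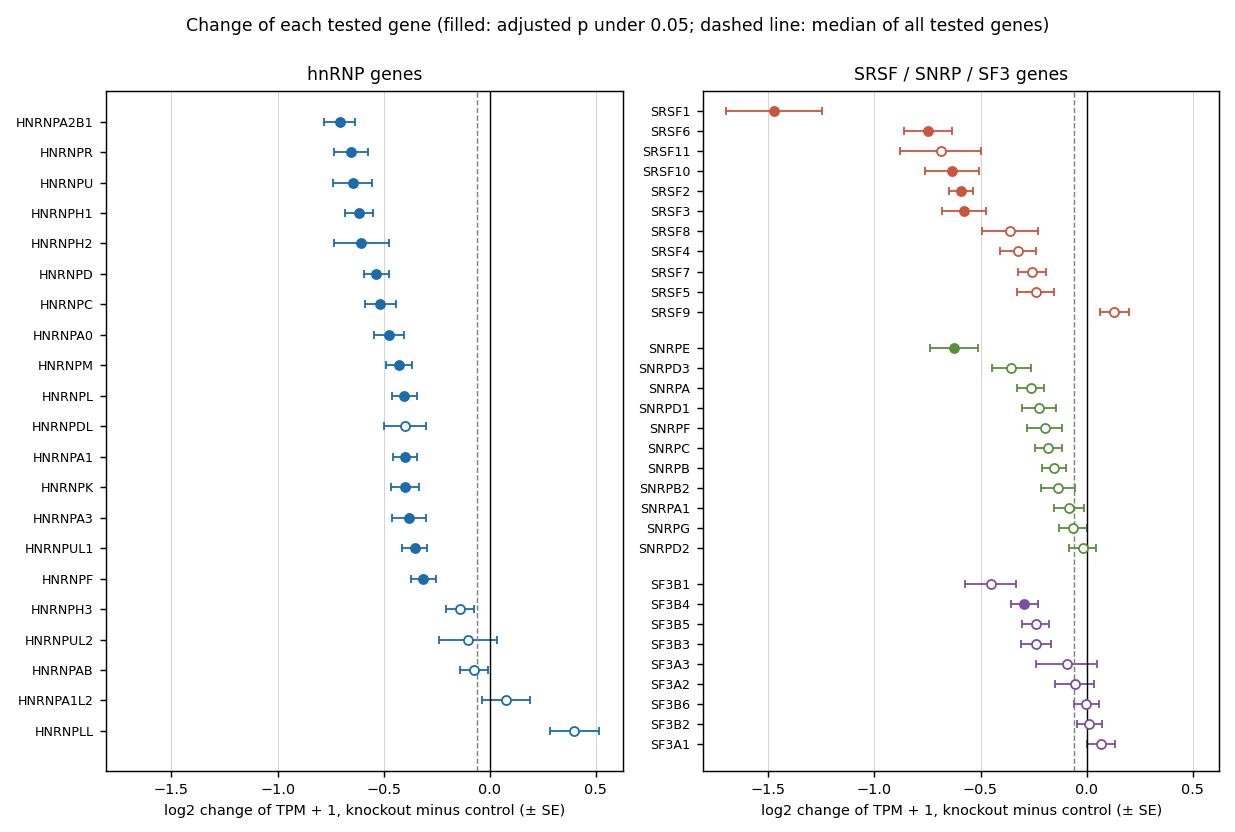
Log2 change of TPM + 1 (knockout minus control) of every tested gene with its standard error from limma, 2 libraries per group; filled points have an adjusted p under 0.05 and the dashed line is the median of all tested genes, -0.06. The hnRNP genes form a run of filled points between -0.71 and -0.31, in which only HNRNPDL (-0.40) is open, and SRSF1 stands apart at -1.47. Among the SNRP and SF3 genes SNRPE (-0.62) and SF3B4 (-0.29) are filled while SF3B1 (-0.45) and SNRPD3 (-0.35) are open.

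The SRSF genes held the largest single change of all members. SRSF1, the founding SR protein and a known oncogene product, lies on chromosome 17 (GRCh38, 58003360 to 58007346, minus strand). It stood at 44.8 and 30.8 TPM in the control libraries against 14.6 and 11.1 TPM in the knockouts, 2.94-fold lower (log2 change -1.47, SE 0.22, adjusted p = 0.024). The controls differed from each other about as much as the lower control did from the higher knockout, and the groups did not overlap. It also fell with the GC trend removed (log2 change -1.25, adjusted p = 0.026), and its change ran from -1.21 without control 1 to -1.74 without control 2. Over 56.6% of its exon length SRSF1 shares its strand with the gene model AC015813.2, which was listed at or near 0 in all libraries. How reads from that stretch were counted is not given in the sources used here.

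SRSF6 fell from 65.7 and 54.7 TPM to 36.0 and 34.5 TPM, 1.71-fold (log2 change -0.75, SE 0.11, adjusted p = 0.024), and by less with the GC trend removed (log2 change -0.46, adjusted p = 0.035). SRSF2, known as SC35 and mutated in myeloid neoplasms, measured 312 and 309 TPM in control cells and 208 and 203 TPM in knockout cells (log2 change -0.59, SE 0.06, adjusted p = 0.014). It had the smallest adjusted p of the 52 members and passed without the GC trend (adjusted p = 0.015). Of its exon length 36.7% overlaps MFSD11 on the opposite strand, which lay between 11.0 and 13.1 TPM in all libraries and did not pass the test. SRSF3, the smallest SR protein and an mRNA export adaptor, went from 200 and 168 TPM to 124 and 121 TPM (log2 change -0.58, SE 0.10, adjusted p = 0.031). SRSF10, which represses splicing when dephosphorylated, went from 41.7 and 35.6 TPM to 26.3 and 22.7 TPM (log2 change -0.64, SE 0.13, adjusted p = 0.038). The groups were apart in both, but with the GC trend removed neither passed (adjusted p = 0.078 and 0.056).

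The 6 other tested SRSF genes did not pass. SRSF11 had control levels of 106 and 99.7 TPM and knockout levels of 76.9 and 52.1 TPM (log2 change -0.69, SE 0.19, adjusted p = 0.069), so that the knockouts differed from each other about as much as knockout 1 did from the controls. SRSF4 (121 to 165 TPM over the 4 libraries), SRSF7 (106 to 131 TPM), SRSF5 (74.9 to 95.9 TPM) and SRSF8, an intronless copy of SRSF2 (10.7 to 15.8 TPM), had both knockouts below both controls. SRSF9, the most abundant SRSF gene, had both knockouts above both controls, with 324 and 326 TPM in control cells and 341 and 372 TPM in knockout cells (log2 change 0.13, SE 0.07, adjusted p = 0.23). It shares 46.2% of its exon length with GATC on the opposite strand, which lay between 20.6 and 25.0 TPM. SRSF12 was at or below 0.0551 TPM and was not tested. Without knockout 1, 9 SRSF genes were called lower and SRSF9 higher (adjusted p = 0.032), without knockout 2 8 were lower, and without either control none were, with 5 or 6 of 11 lower at an unadjusted p under 0.05 without control 1 or 2, beside the same 8.16% and 11.6% of all tested genes.

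Among the SNRP genes, which encode the core of the spliceosomal particles, 1 of 11 fell, a share near the 8.67% of all tested genes. SNRPE, the Sm protein E, stood at 116 and 97.8 TPM in the control libraries against 72.6 and 65.1 TPM in the knockouts, 1.55-fold lower (log2 change -0.62, SE 0.11, adjusted p = 0.032), and passed with the GC trend removed (adjusted p = 0.038). The other Sm proteins did not pass the test. SNRPD3 measured 32.4 and 34.4 TPM in control cells and 26.9 and 25.0 TPM in knockout cells (adjusted p = 0.060); it lies on chromosome 22, whose genes had a median change of 0.22, and with chromosome medians equalised it fell (log2 change -0.57, adjusted p = 0.027). SNRPB, the most abundant SNRP gene, had control levels of 398 and 408 TPM and knockout levels of 360 and 365 TPM (log2 change -0.15, SE 0.06, adjusted p = 0.12). SNRPD1 lay between 31.9 and 38.9 TPM, SNRPF between 43.7 and 52.6 TPM and SNRPG between 112 and 119 TPM, each with both knockouts below both controls. SNRPD2 had overlapping groups, with 218 and 218 TPM in control cells and 210 and 221 TPM in knockout cells. Its log2 change of -0.02 (SE 0.06, 95% interval -0.18 to 0.15, adjusted p = 0.86) was the SNRP value nearest to 0.

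Of the U1 proteins, SNRPA stood at 160 and 163 TPM in the control libraries against 137 and 131 TPM in the knockouts (log2 change -0.26, adjusted p = 0.053) and passed with the GC trend removed (adjusted p = 0.042). SNRPC measured 224 and 225 TPM in control cells and 204 and 192 TPM in knockout cells (log2 change -0.18, SE 0.06, adjusted p = 0.11). The U2 proteins SNRPA1 (114 to 127 TPM) and SNRPB2 (51.8 to 59.5 TPM) did not pass. In 10 of the 11 tested SNRP genes both knockouts lay below both controls. The share was 39.0% of all tested genes and 44.5% of those with a mean of at least 10 TPM. SNRPN, the imprinted relative of SNRPB that is known from neurons, was at or below 0.0344 TPM and was not tested. Among the 56 excluded SNRP pseudogene symbols, SNRPGP10 rose from 70.3 and 63.1 TPM to 91.0 and 86.6 TPM (adjusted p = 0.041); since it resembles SNRPG, the division of reads between both is uncertain. Without knockout 1, 5 SNRP genes were called lower, without knockout 2 2, and without either control none, with 1 of 11 lower at an unadjusted p under 0.05 in each case, a share near the 8.16% and 11.6% of all tested genes.

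In the SF3 complexes 1 of 9 genes fell, a share near the 8.67% of all tested genes. SF3B4, a branch-site contact of SF3B that is mutated in Nager syndrome, had control levels of 224 and 226 TPM and knockout levels of 188 and 179 TPM (log2 change -0.29, SE 0.06, adjusted p = 0.042). It passed with the GC trend removed (adjusted p = 0.038), but it lies on chromosome 1, whose genes had a median change of -0.17, and with chromosome medians equalised it did not (log2 change -0.13, adjusted p = 0.21). SF3B1, the HEAT-repeat subunit that clamps the branch site and is recurrently mutated in cancer, stood at 113 and 114 TPM in the control libraries against 92.4 and 73.8 TPM in the knockouts (log2 change -0.45, SE 0.12, adjusted p = 0.064). The controls were equal and the knockouts far apart, with knockout 2 the lower. SF3B5, the most abundant SF3 gene, measured 297 and 300 TPM in control cells and 261 and 244 TPM in knockout cells (log2 change -0.24, SE 0.06, adjusted p = 0.065), and SF3B3 lay between 87.0 and 108 TPM (adjusted p = 0.080).

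The SF3 subunits with the smallest changes were SF3B6, SF3B2, SF3A2, SF3A1 and SF3A3, and none passed the test. SF3B6, which touches the branch adenosine, had control levels of 265 and 256 TPM and knockout levels of 262 and 258 TPM (log2 change -0.001, SE 0.06, adjusted p = 0.99), with a 95% interval from -0.16 to 0.15 that leaves out the changes estimated for the 15 hnRNP genes that fell. SF3B2 stood at 222 and 227 TPM in the control libraries against 224 and 229 TPM in the knockouts (95% interval -0.14 to 0.17). SF3A1 lay between 77.6 and 82.5 TPM with both knockouts above (log2 change 0.07, SE 0.07, adjusted p = 0.49). SF3A2 (136 to 158 TPM) and SF3A3 (107 to 139 TPM) had overlapping groups. Without knockout 1 or without knockout 2, 3 SF3 genes were called lower in each case, and without either control none were, also at an unadjusted p under 0.05. Without knockout 2 the family median was -0.01, and without knockout 1 it was -0.20.

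Genes that work beside the members were taken from 10 lists of splicing factors. Of the U1 list 3 of 6 tested fell (SNRNP70, 452 and 432 to 345 and 369 TPM, which binds the U1 RNA stem, LUC7L2 and PRPF39; list median -0.42), and of the U2 partners 3 of 11 (U2AF2, which binds the polypyrimidine tract, 215 and 215 to 164 and 167 TPM, DHX15 and HTATSF1; median -0.33). Of the tri-snRNP list 3 of 15 fell (PRPF31, SNRNP200 and DDX23) and 1 rose (SNU13, 90.5 and 90.5 to 117 and 137 TPM; median -0.15), and of the LSM proteins 2 of 10 fell (LSM3 and LSM5) and 1 rose (LSM10, part of the U7 particle; median -0.05). One gene fell among the 8 of the minor spliceosome (SNRNP48; median -0.25) and 1 among the 13 of the SMN complex, which loads Sm rings (STRAP; median -0.21). Among the PRP19 and step factors it was 2 of 18 (CDC5L and PLRG1; median -0.26). Each share is read beside the 8.67% of all tested genes that fell and the median of -0.06. With the GC trend removed, SNRNP70, U2AF2, HTATSF1, PRPF31, SNRNP200, DDX23 and SNU13 kept their calls. LUC7L2, PRPF39, DHX15, LSM3, LSM5, LSM10, SNRNP48, STRAP, CDC5L and PLRG1 lost theirs, with values of -0.07 for CDC5L and -0.09 for PLRG1. SF1, PRPF8, SNRNP25, GEMIN8 and PRPF19 were called lower only with the GC trend removed, where 7.48% of all genes fell. The list medians were then -0.30 for U1, -0.14 for the U2 partners, -0.09 for the tri-snRNP, -0.06 for LSM, -0.12 for the minor spliceosome, -0.10 for SMN and -0.10 for PRP19.

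Of 14 SR-related proteins 5 fell (TRA2A, TRA2B, RBM39, THRAP3 and ACIN1, median -0.37) and all 14 values were negative. Of all tested genes 8.67% fell and 55.6% had a negative value, and the counts that follow are read beside these shares. With the GC trend removed, where 7.48% of all genes fell, TRA2B and THRAP3 lost their calls (adjusted p = 0.056 and 0.058). RBM39 then had a log2 change of -0.27 (adjusted p = 0.049) and the list median was -0.28. TRA2A, an activator that binds GAA repeats, measured 74.7 and 72.3 TPM in control cells and 43.0 and 37.1 TPM in knockout cells, 1.84-fold lower (log2 change -0.86, SE 0.10, adjusted p = 0.016). Of 9 genes for phosphorylation and nuclear import of SR proteins 3 fell (median -0.23): the kinase CLK2, 56.2 and 51.2 to 35.9 and 27.1 TPM, and the importins TNPO3, 118 and 118 to 73.7 and 83.1 TPM, and TNPO1. TNPO3 carries SR proteins and TNPO1 carries hnRNPs into the nucleus, and with the GC trend removed TNPO3 passed (adjusted p = 0.022) and TNPO1 did not (adjusted p = 0.42), with a list median of -0.03. Of 18 tested hnRNP-type proteins with other symbols 9 fell and 1, PCBP4, rose (median -0.36). RBMX, an X-linked RNA-binding protein, measured 159 and 152 TPM in control cells and 106 and 97.8 TPM in knockout cells (log2 change -0.61, SE 0.07, adjusted p = 0.017). PCBP2, which binds C-rich RNA, and TARDBP also fell. With the GC trend removed TARDBP did not pass (adjusted p = 0.073), RBMX had a log2 change of -0.30 (adjusted p = 0.040) and the list median was -0.20. In these lists SRRM2, PPP1CA and CIRBP were called lower, and SRPK1 higher, only with the GC trend removed.

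**Figure D4:**
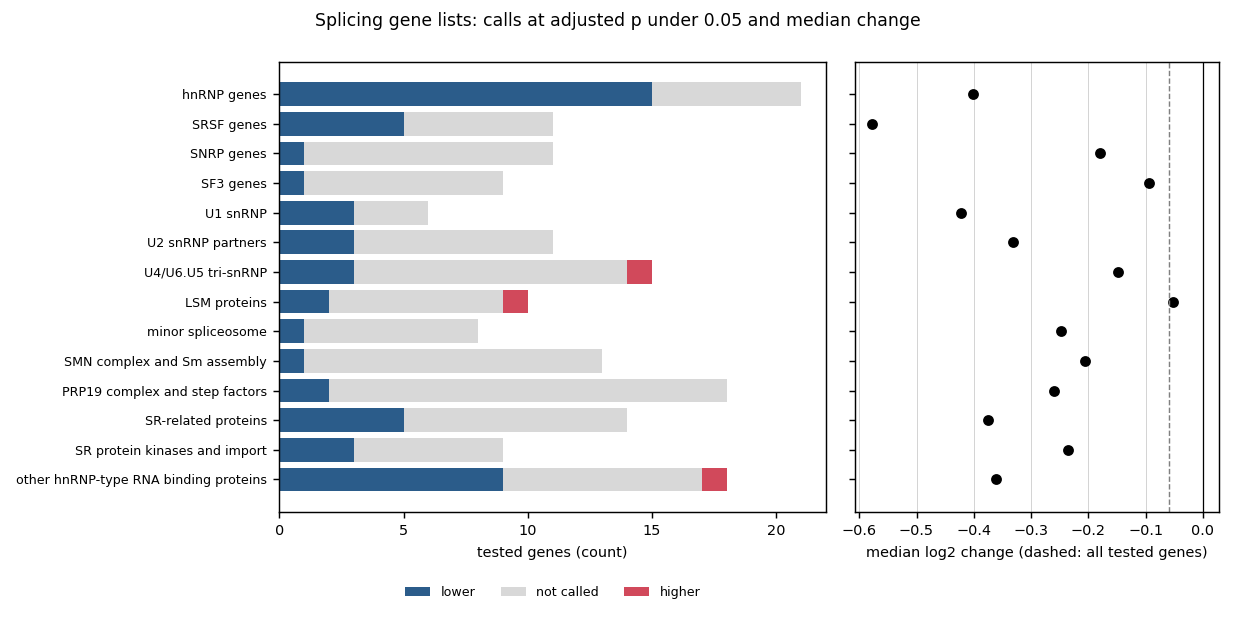
Tested genes of the 4 families and of 10 lists of splicing factors by call at an adjusted p under 0.05 (bars, count of genes lower, not called and higher) and the median log2 change of each list (points; the dashed line is the median of all tested genes, -0.06). The hnRNP genes have the most falls, 15 of 21, and the median of the LSM proteins lies at the dashed line.

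The counts also varied with the scaling and with single libraries. With chromosome medians equalised, 13 hnRNP, 5 SRSF, 2 SNRP and 0 SF3 genes fell, where 7.18% of all tested genes did, and with median ratio scaling 13, 5, 1 and 0 fell, where 5.82% did. At an unadjusted p under 0.05 limma placed 30 members lower with chromosome medians equalised, where 17.9% of all tested genes were lower, and 29 with median ratio scaling, where 16.9% were. Without knockout 1 the share of all tested genes that fell was 20.7% and without knockout 2 it was 11.2%, read beside the family counts given above. Without control 1 it was 0.00653% and without control 2 it was 0.0457%, so that the absence of calls among members there goes with an absence of nearly all falls.

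**Figure D5:**
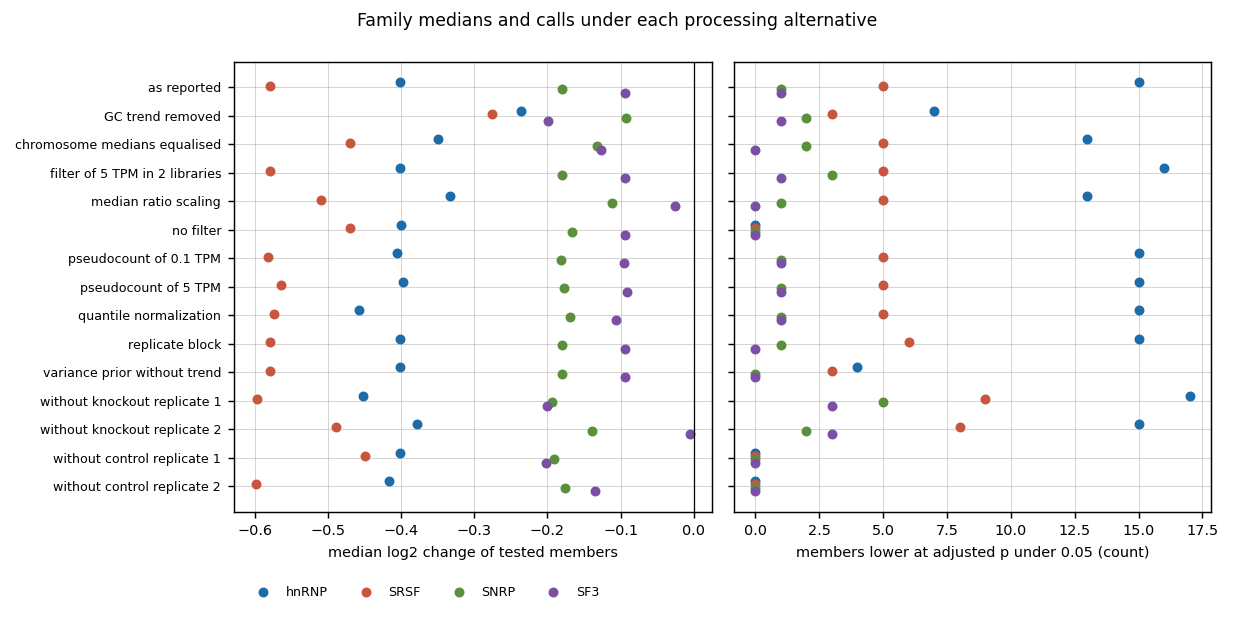
Median log2 change of the tested members of each family (left) and the number of members lower at an adjusted p under 0.05 (right) under each processing alternative and with each library left out. All medians stay below 0, while the counts go to 0 without either control and without a filter on low values.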

How the data were processed

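Polyadenylated RNA of 786-O cells was sequenced in 2 control and 2 DEK knockout libraries, grouped by their titles. The authors deposited 1 table of TPM for 59409 symbols. The tools listed in the submitters' processing notes, without their role, are STAR 2.7.8a, cutadapt 1.18, DESeq2 1.36.0 and featureCounts 2.0.1, with the build hg38. Which annotation and strand setting were used is not given in the sources used here. TPM are relative to the other genes of a library, and no counts were used, so depths are estimates.

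Genes reaching 1 TPM in 2 or more libraries were fitted as log2(TPM + 1) with limma 3.58.1 in R 4.3.3 (trended variance prior, group as the only term), with Benjamini-Hochberg adjustment over all 15815 genes at 0.05. The log2 scale understates changes of low genes; fold values divide mean TPM. An exact permutation test over 2 against 2 libraries could not reach 0.05 and was not used. The script was tested on simulated data. Positions, exon lengths and GC content come from GENCODE release 29 (GRCh38), with 54390 symbols matched by name and 2209 through other symbols; promoters come from RefSeq. In the GC alternative a lowess trend (span 0.3) was subtracted per library, and in the chromosome alternative chromosome medians were equalised. The other alternatives changed the pseudocount, filter, scaling, variance prior or threshold, added a replicate block, or left out a library.

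Members and lists were chosen with earlier results of these data known. Full statistics were given for members past the threshold and, per family, for the 2 most abundant and those with the largest change in each direction. Of the other lists, members past the threshold were named, or the 4 with the smallest p where more than 5 passed. Some genes that this rule would name are not reported here.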

Additional observations from a re-analysis of the deposited data

How the results depend on the processing

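All 22 members that fell had negative values under every alternative, and of 728 values of single members under alternatives 601 kept their side of the threshold, 99 lost it, 28 gained it and 0 reversed; the cause was not tested. The calls of all genes, 2804 as reported (1433 higher, 1371 lower), were 1437 with a variance prior without trend, 26 without a filter and 90 at an adjusted p under 0.01. Higher and lower calls were 1622 and 921 with median ratio scaling and 1706 and 1123 with chromosome medians equalised. Leaving out 1 library gave 47 to 5510 calls in all, 0 to 18 of the hnRNP genes, 0 to 10 of the SRSF genes, 0 to 5 of the SNRP genes and 0 to 3 of the SF3 genes. The hnRNP calls were 8 with the GC trend removed, 4 without the trended prior, 0 without a filter and 0 at 0.01. For the SRSF genes these were 3, 3, 0 and 0. For the SNRP genes they were 2, 0, 0 and 0, with 2 after equalising chromosomes and 3 with a filter of 5 TPM. The SF3 calls were 0 with equalised chromosomes, median ratio scaling, no trended prior, no filter and at 0.01. Over all tested genes, 1598 of 10966 fell with a filter of 5 TPM and 571 of 15815 without the trended prior. Without a filter 0 of 31270 fell, and at 0.01 it was 10 of 15815. At an unadjusted p under 0.05 limma placed 37 members lower without a filter, where 11.7% of all genes were.

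The hnRNP median was -0.24 with the GC trend removed, -0.35 with equalised chromosomes, -0.33 with median ratio scaling and -0.46 with quantile normalization; the SRSF median was -0.28, -0.47 and, without a filter, -0.47; the SNRP median was -0.093, -0.13 and, with median ratio scaling, -0.11. Leaving out 1 library moved the medians between -0.45 and -0.38 (hnRNP), -0.60 and -0.45 (SRSF), -0.19 and -0.14 (SNRP) and -0.20 and -0.0054 (SF3).

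Replicate numbers were not shown to pair the libraries: the deviations of control 1 and knockout 1 from their group means correlated at 0.0989 across genes. With the number as a replicate block, 2971 of 15815 genes were called, 1548 of them lower. Among the 1548 lower genes were 15 hnRNP, 6 SRSF, 1 SNRP and 0 SF3 genes. Depth is an estimate here, and each of the 6 members not tested lay under the TPM of an estimated 3 reads in every library.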
